A study of Mus musculus with 4 samples.

Results

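The nuclear genes that encode subunits of the oxidative phosphorylation machinery were compared between lung tumours with and without Usp25. The set was defined by gene name: Nduf genes of the A, B, C, S and V series, Sdha to Sdhd, every Uqcr gene, Cox4 to Cox8 and every Atp5 gene. This gave 82 genes among 21420 usable rows, with 37 named for complex I, 4 for complex II, 8 for complex III, 16 for complex IV and 17 for complex V. Messenger RNA was sequenced from 4 cell preparations of mouse lung tumours. KL25 tumours came from Usp25-/- mice that also carried the Cre-dependent tumour alleles of the KL model, among them Lkb1 fl/fl, and KL tumours from mice with those tumour alleles and no Usp25 deletion. Both groups received adenoviral Cre through the nose, which recombines floxed alleles in airway cells, and were taken 10 weeks later. CD45 magnetic beads were applied to the suspensions, and the cells are labelled CD45-negative. There were 2 libraries for each genotype, from 2 mice each by the design text. The labels give neither age nor strain for either group.

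Oxidative phosphorylation takes electrons from NADH at complex I and from succinate at complex II. It passes them through complex III and cytochrome c to oxygen at complex IV, and uses the resulting proton gradient to make ATP at complex V, the ATP synthase. Every complex but the second is built jointly from nuclear and mitochondrial genes. Genes of the mitochondrial genome were not analysed here. The nuclear genes are expressed in nearly all cells, and a few complex IV subunits exist as ubiquitous and tissue-restricted isoforms. Many of these genes have processed pseudogenes in the mouse genome, and how shared reads were counted is not given in the sources used here.

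Levels are given as FPKM, that is, fragments scaled by gene length and library size, a unit read from the deposited values. The KL25 libraries, replicates 1 and 2, summed to 564975 and 525973 FPKM, and those of KL to 533297 and 545124 FPKM. Values below keep this order of replicates. Usp25 was at 2.65 and 1.71 FPKM in the KL25 pair, against 38.5 and 16.6 FPKM in the KL pair. In the subunit genes 1 library, KL replicate 1, was unlike the remaining 3. Across the 79 measured members, Pearson's r of log2(FPKM + 1) was 0.891 to 0.909 between KL replicate 1 and each of the others, and 0.950 to 0.978 among the others. These correlations run over genes that share their libraries and are a description. CD45 itself, encoded by Ptprc, was at 51.0 and 43.3 FPKM in the KL25 pair and 123 and 46.4 FPKM in the KL pair, so the preparations held leukocyte RNA. The epithelial marker Epcam was at 205 and 69.9 FPKM in the KL25 pair and 57.8 and 35.8 FPKM in the KL pair. In whole preparations fewer cells of a type and less RNA per cell cannot be told apart.

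Promoter sequences of these genes were searched for 3 short motifs and for a TATA box. RefSeq windows on GRCm38.p6, from 250 bases before to 50 bases after an annotated start, were found for 67 of the 82 members, as 73 windows of 300 bases. Those with no entry include Ndufa2, Ndufa4l2, Ndufb9, Ndufs1, Sdhc, Uqcrb, Uqcrc2, Uqcrq, Cox4i1, Cox4i2, Cox6a2, Cox6c, Cox8c and Atp5a1. On both strands, the core of the NRF1 motif (GCGCA and GCGC with any base between them) was present in 24.7% of member windows (18 of 73), against 4.60% of all 32851 windows. The ETS motif CCGGAAG was present in 21.9% of member windows and 8.86% of all windows. The YY1 motif AAGATGGCG was present in 12.3% of member windows and 1.40% of all windows. At least 1 of these 3 motifs was in 50.7% of member windows (37 of 73) and 13.6% of all windows. The windows were not matched for base composition. NRF1, ETS factors such as GABP, and YY1 are known regulators of nuclear mitochondrial genes. The TATAAA box was in 8.22% of member windows and 13.6% of all windows. A match describes letters, not a bound site, and no match says only that these letters are not in the window. The 35 measured members with at least 1 of the first 3 motifs had a median log2 fold change of 0.33, and the 32 with none of them had 0.35.

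The promoters of 5 members are shown as examples of windows with and without these motifs, in lower case with NRF1, ETS and YY1 matches in capitals, 5′ to 3′ on the strand of the gene. Ndufs5, chr4:123718137-123718436, minus strand, was nearly absent from 1 library. Cox6a1, chr5:115348909-115349208, minus strand, had no library overlap between the groups. Sdha, chr13:74350191-74350490, minus strand, lay lower in KL25. Ndufs7, chr10:80249199-80249498, plus strand, holds a YY1 match just after the start. Cox7a1, chr7:30183921-30184220, plus strand, had the lowest unadjusted p and none of the 3 motifs.
Ndufs5: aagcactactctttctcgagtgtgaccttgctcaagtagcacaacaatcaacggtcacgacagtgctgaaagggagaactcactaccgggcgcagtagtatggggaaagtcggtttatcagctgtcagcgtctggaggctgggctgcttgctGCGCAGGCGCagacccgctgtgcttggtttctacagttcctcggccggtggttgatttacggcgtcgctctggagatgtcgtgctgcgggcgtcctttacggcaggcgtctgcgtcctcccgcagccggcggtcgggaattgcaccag
Cox6a1: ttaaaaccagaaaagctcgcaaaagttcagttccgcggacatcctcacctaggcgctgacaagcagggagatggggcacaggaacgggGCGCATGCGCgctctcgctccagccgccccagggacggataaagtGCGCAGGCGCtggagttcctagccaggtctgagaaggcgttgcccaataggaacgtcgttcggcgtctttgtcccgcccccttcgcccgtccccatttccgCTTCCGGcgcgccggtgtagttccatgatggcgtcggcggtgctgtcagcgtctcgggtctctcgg
Sdha: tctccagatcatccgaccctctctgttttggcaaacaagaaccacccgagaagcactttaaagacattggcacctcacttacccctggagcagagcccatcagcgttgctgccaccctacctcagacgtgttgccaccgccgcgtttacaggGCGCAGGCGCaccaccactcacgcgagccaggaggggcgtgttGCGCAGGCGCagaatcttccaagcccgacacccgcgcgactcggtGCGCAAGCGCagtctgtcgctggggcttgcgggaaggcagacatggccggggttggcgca
Ndufs7: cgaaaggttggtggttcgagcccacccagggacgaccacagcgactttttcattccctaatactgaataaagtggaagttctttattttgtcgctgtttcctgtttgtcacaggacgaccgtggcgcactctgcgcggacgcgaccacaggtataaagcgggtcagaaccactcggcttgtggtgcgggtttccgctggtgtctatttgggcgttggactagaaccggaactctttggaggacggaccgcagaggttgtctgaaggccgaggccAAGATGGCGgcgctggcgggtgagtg
Cox7a1: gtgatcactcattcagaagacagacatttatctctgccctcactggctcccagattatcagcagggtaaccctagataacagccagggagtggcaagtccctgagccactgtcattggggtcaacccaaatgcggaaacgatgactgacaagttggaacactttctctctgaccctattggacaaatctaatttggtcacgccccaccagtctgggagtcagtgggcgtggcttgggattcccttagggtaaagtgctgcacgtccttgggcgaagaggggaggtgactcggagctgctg

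The first question was whether subunit transcripts differed between KL25 and KL tumours. No member passed in limma at an adjusted p below 0.05, and 0% of the 12476 genes tested passed. Of the 82 members 79 reached a mean of 1 FPKM in either group and were tested. Their median log2 fold change on the log2(FPKM + 1) scale was 0.33, against 0.03 over all genes tested. It was positive in 66 of 79 members (83.5%), against 53.1% of all genes tested. At an unadjusted p below 0.05 there was 1 member, Cox7a1, which had a higher level in KL25. The same threshold was passed by 2.16% of all genes tested in that direction and by 1.07% in the other. In the authors' deposited table no member had an adjusted p below 0.05, where 0.122% of genes with an adjusted p did, and none had an unadjusted p below 0.05. The smallest two-sided exact permutation p that 2 libraries against 2 allow for a gene is 0.333.

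The KL25 pair was above the KL pair, with no overlap, in 23 of 79 members (29.1%), against 19.1% of all genes tested. It was below in 2 of 79 (2.53%), namely Sdha and Cox7a2, against 15.0% of all genes tested. The other 54 members overlapped between the groups. The positive median turned on KL replicate 1. Without that library the median log2 fold change was -0.029 and 36 of 79 members were positive. Over all genes tested it was then -0.0043, with 6149 of 12476 positive. Without KL replicate 2 the median of the members was 0.72 with 75 positive, against 0.097 and 6933 over all genes tested. Dropping KL25 replicate 1 gave the members a median of 0.21, against 0.048 over all genes tested. Dropping KL25 replicate 2 gave 0.44, against 0.00051. Set against KL replicate 2 alone, both KL25 libraries were above it in 24 members (30.4%) and below it in 27 (34.2%), against 35.5% and 36.7% of all genes tested. Set against KL replicate 1 alone, both KL25 libraries were above it in 73 members (92.4%), against 45.1% of all genes tested. At an unadjusted p below 0.05 there were 3 members without KL replicate 1, where 4.61% of all genes tested passed, and 36 without KL replicate 2, where 20.3% did. There were 0 without KL25 replicate 1, where 1.09% of all genes passed, and 1 without KL25 replicate 2, where 3.23% did.

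**Figure D1:**
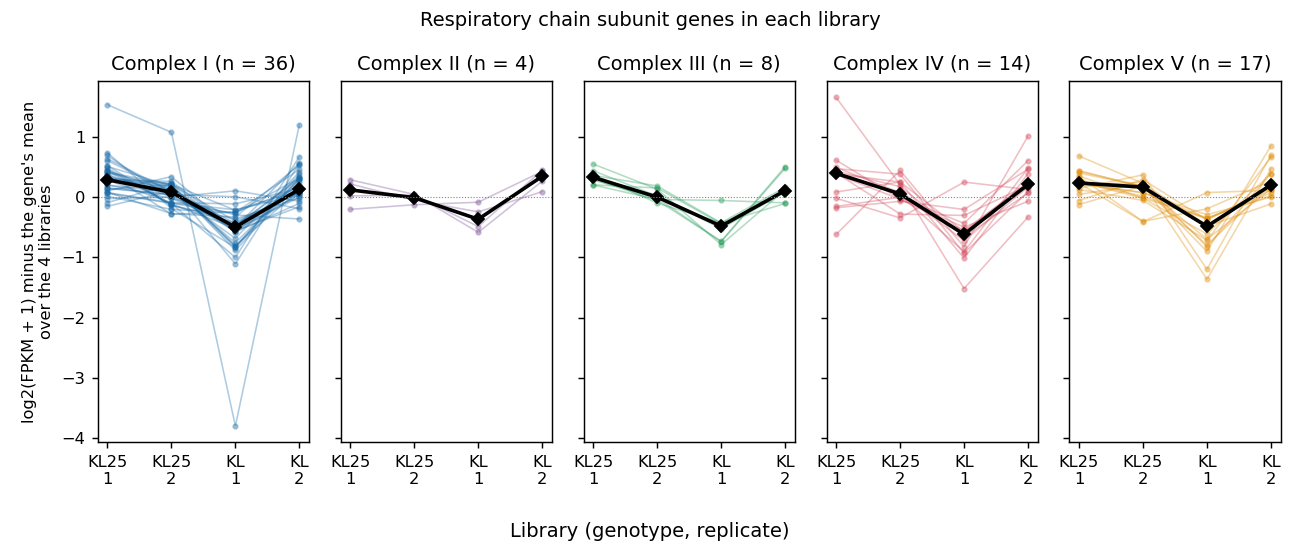
Each thin line is 1 measured gene, plotted as log2(FPKM + 1) minus its own mean over the 4 libraries, by complex; black diamonds are the medians of the complex in each library. The median was lowest in KL replicate 1 in all 5 complexes, at -0.50 in complex I, -0.37 in II, -0.48 in III, -0.62 in IV and -0.49 in V.

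KL replicate 1 held the lowest of the 4 values in 70 of the 79 measured members (88.6%), against 38.3% of all genes tested. The exceptions were Ndufb3, Ndufb9, Ndufs4, Ndufs6, Sdha, Uqcrc2, Cox7a2, Atp5j2 and Atp5s. The mean of the other 3 libraries was higher than KL replicate 1 by a median of 1.64-fold over the members. The mean of the KL25 libraries relative to KL replicate 2 had a median ratio of 0.997. Summed over the 82 genes, the level was 11790 and 9656 FPKM in the KL25 pair and 6485 and 10690 FPKM in the KL pair. That was 2.09% and 1.84% of the library total in KL25, and 1.22% and 1.96% in KL. The KL25 libraries and KL replicate 2 therefore differed little in this share, and KL replicate 1 was the low one.

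Complex I feeds electrons from NADH into the chain, and 36 of its 37 members were measured. The median log2 fold change was 0.37, with 30 positive (83.3%, against 53.1% of all genes tested). In 11 members (30.6%, against 19.1%) the KL25 pair lay above the KL pair, and in none below it, against 15.0%. It was 0.045 without KL replicate 1, 0.66 without KL replicate 2, and 0.24 and 0.51 when either KL25 library (replicate 1, then 2) was dropped. Among the iron-sulphur and flavin subunits that carry electrons, Ndufv1, which binds NADH, was at 54.8 and 58.1 FPKM in the KL25 pair and 37.8 and 52.7 FPKM in the KL pair. Its partner Ndufv2 was at 78.1 and 73.1 FPKM in the KL25 pair and 41.3 and 64.6 FPKM in the KL pair. In both genes the KL25 libraries lay above the KL libraries, with KL replicate 2 near the KL25 values. Ndufs7, a core subunit next to the quinone site, was at 86.9 and 78.0 FPKM in the KL25 pair and 53.0 and 76.0 FPKM in the KL pair. Ndufs8, which holds iron-sulphur clusters, was at 107 and 83.6 FPKM in the KL25 pair and 53.6 and 81.0 FPKM in the KL pair. Both were separated between the groups by small gaps to KL replicate 2. Ndufs7 had a log2 fold change of 0.37 (SE 0.33) and Ndufs8 of 0.52 (SE 0.36). Without KL replicate 1 these were 0.11 and 0.22, and without KL replicate 2 they were 0.62 and 0.81; Ndufs8 was at 0.34 without KL25 replicate 1. Ndufs1, the largest core subunit, differed little between libraries, at 24.6 and 21.8 FPKM in the KL25 pair and 21.5 and 25.8 FPKM in the KL pair.

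Among the accessory subunits, those with the lowest unadjusted p were Ndufb6, Ndufa4 and Ndufs4, and none passed. Ndufb6, of the membrane arm, was at 88.7 and 61.6 FPKM in the KL25 pair and 38.6 and 53.9 FPKM in the KL pair (log2 fold change 0.68, SE 0.36, limma adjusted p = 0.942). Its value was 0.42 to 0.94 when 1 library was left out, 0.45 of these without KL replicate 1 and 0.42 without KL25 replicate 1. Ndufs4, needed for a stable complex, was at 55.6 and 33.6 FPKM in the KL25 pair and 27.6 and 26.3 FPKM in the KL pair. Ndufa4, named for complex I but now placed with complex IV, was the most abundant gene of the Nduf names, at 459 and 315 FPKM in the KL25 pair and 200 and 264 FPKM in the KL pair. For these 3 genes KL25 replicate 1 was the high library. Ndufa6, an accessory subunit, was next in abundance, at 200 and 137 FPKM in the KL25 pair and 104 and 173 FPKM in the KL pair, and overlapped. Its mean of 154 FPKM compared with a median of 63.4 FPKM over the measured members named for complex I, which ranged from 17.0 to 310 FPKM. Negative fold changes were small: Ndufv3 was at 96.8 and 75.4 FPKM in the KL25 pair and 72.5 and 133 FPKM in the KL pair, and the high value was that of KL replicate 2. Ndufb8 was at 99.7 and 85.6 FPKM in the KL25 pair and 82.6 and 136 FPKM in the KL pair. Ndufa1, an X-linked subunit, was at 53.0 and 63.4 FPKM in the KL25 pair and 41.4 and 87.8 FPKM in the KL pair. In each of these 3 genes the KL libraries lay on both sides of the KL25 libraries. Ndufa4l2, a hypoxia-inducible relative of Ndufa4, was not measured, being listed at 0 in KL25 replicate 1 and KL replicate 1, at 1.97 FPKM in KL25 replicate 2 and at 1.03 FPKM in KL replicate 2.

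Ndufs5, an accessory subunit facing the intermembrane space, is singled out after its values were seen. It was at 91.4 and 66.3 FPKM in the KL25 pair, against 1.31 and 72.5 FPKM in the KL pair. The gene was thus nearly absent from KL replicate 1 and at similar levels in the other 3 libraries. Its log2 fold change was 2.60 (SE 1.57, limma adjusted p = 0.942) with all libraries, 0.10 without KL replicate 1 and 5.09 without KL replicate 2. It lies on chromosome 4 from 123712710 to 123718202 (GRCm38, minus strand). Of the 4524 genes tested with at least 10 FPKM in each of the other 3 libraries, 2 had a KL replicate 1 value at or below 1/16 of the lowest of them. The second was the predicted gene Gm1987, at 17.7 and 24.3 FPKM in the KL25 pair and 0.711 and 38.8 FPKM in the KL pair.

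Complex II, succinate dehydrogenase, links the citric acid cycle to the chain and is wholly nuclear. Its median log2 fold change was 0.10 over 4 genes, and -0.26 without KL replicate 1, 0.42 without KL replicate 2, and 0.039 and 0.17 when either KL25 library (replicate 1, then 2) was dropped. Sdha, the flavoprotein, was at 50.7 and 53.5 FPKM in the KL25 pair and 55.1 and 78.9 FPKM in the KL pair (log2 fold change -0.34, SE 0.33, limma adjusted p = 0.942). Both KL25 libraries were below both KL libraries, although KL replicate 1 was within 2 FPKM of KL25 replicate 2. Dropping KL replicate 1 gave a log2 fold change of -0.59 and dropping KL replicate 2 gave -0.079 for this gene. Sdhb, the iron-sulphur subunit, was at 152 and 126 FPKM in the KL25 pair and 110 and 139 FPKM in the KL pair. Of the membrane anchors, Sdhc was at 135 and 114 FPKM in the KL25 pair and 73.4 and 133 FPKM in the KL pair. Sdhd was at 97.3 and 98.2 FPKM in the KL25 pair and 68.1 and 131 FPKM in the KL pair. The 3 genes other than Sdha were lowest in KL replicate 1, and their groups overlapped. The log2 fold change of Sdhd, 0.048, was negative (-0.0028) after median ratio scaling.

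Complex III passes electrons from ubiquinol to cytochrome c. The log2 fold change was positive in all 8 members, against 53.1% of all genes tested, with a median of 0.31. In 4 of the 8 the KL25 libraries lay above the KL libraries, against 19.1% of all genes tested. The median was 0.12 without KL replicate 1, with 5 positive, 0.72 without KL replicate 2, and 0.18 and 0.46 when either KL25 library (replicate 1, then 2) was dropped. Uqcrfs1, the Rieske iron-sulphur protein, was at 113 and 100 FPKM in the KL25 pair and 65.1 and 81.6 FPKM in the KL pair (log2 fold change 0.54, SE 0.31, limma adjusted p = 0.942). Of the core proteins, Uqcrc1 was at 112 and 108 FPKM in the KL25 pair and 71.3 and 104 FPKM in the KL pair. Uqcrc2 was at 69.6 and 58.8 FPKM in the KL25 pair and 58.1 and 56.5 FPKM in the KL pair. Uqcrc2 was the member of this complex in which KL replicate 2, and not KL replicate 1, was lowest. Uqcrb, which borders the quinone-reducing site, was at 159 and 119 FPKM in the KL25 pair and 62.4 and 118 FPKM in the KL pair, and its groups were set apart by about 1 FPKM. Uqcrh, the acidic hinge protein, was the most abundant, at 300 and 224 FPKM in the KL25 pair and 154 and 234 FPKM in the KL pair. Uqcrq was at 232 and 182 FPKM in the KL25 pair and 113 and 268 FPKM in the KL pair, and both overlapped.

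Complex IV, cytochrome c oxidase, reduces oxygen, and 14 of its 16 members were measured. The median log2 fold change was 0.38 with 10 positive (71.4%, against 53.1% of all genes tested). It was -0.076 with 5 positive without KL replicate 1, and 0.77 without KL replicate 2. Dropping KL25 replicate 1 gave 0.30 and dropping KL25 replicate 2 gave 0.58. Cox4i1, the ubiquitous regulatory isoform, had the highest mean of all members (600 FPKM), at 778 and 651 FPKM in the KL25 pair and 366 and 604 FPKM in the KL pair (log2 fold change 0.60, SE 0.42, limma adjusted p = 0.942). Dropping KL replicate 1 gave a log2 fold change of 0.24 and dropping KL replicate 2 gave 0.96 for this gene. The lung-enriched, hypoxia-linked isoform Cox4i2 was at 2.05 and 2.39 FPKM in the KL25 pair and 1.51 and 4.16 FPKM in the KL pair. The ubiquitous form thus stood far above the other in every library. Cox5a was at 145 and 163 FPKM in the KL25 pair and 91.4 and 163 FPKM in the KL pair. Cox5b, a zinc-binding subunit, was at 103 and 111 FPKM in the KL25 pair and 101 and 161 FPKM in the KL pair. Both subunits overlapped between the groups, Cox5b with a log2 fold change of -0.26 (SE 0.37).

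The other ubiquitous complex IV genes differed in the order of the libraries. Cox6a1 was at 292 and 274 FPKM in the KL25 pair and 110 and 224 FPKM in the KL pair (log2 fold change 0.84, SE 0.45, limma adjusted p = 0.942). Dropping KL replicate 1 gave a log2 fold change of 0.34 and dropping KL replicate 2 gave 1.35 for this gene. Cox6b1 was at 278 and 253 FPKM in the KL25 pair and 105 and 279 FPKM in the KL pair. Cox6c was at 299 and 186 FPKM in the KL25 pair and 183 and 259 FPKM in the KL pair. Of these 3, Cox6a1 was the one with groups that did not overlap. Cox7c was at 435 and 278 FPKM in the KL25 pair and 201 and 271 FPKM in the KL pair. Cox7b was at 131 and 101 FPKM in the KL25 pair and 52.3 and 138 FPKM in the KL pair. Cox8a, the ubiquitous form of the smallest subunits, was at 343 and 258 FPKM in the KL25 pair and 180 and 309 FPKM in the KL pair. KL replicate 1 was lowest in each of these 6 genes, and KL replicate 2 lay below both KL25 libraries in Cox6a1 and Cox7c but not in the other 4. Cox7a2l, a relative of Cox7a2 that joins complexes III and IV into supercomplexes, was at 273 and 204 FPKM in the KL25 pair and 117 and 218 FPKM in the KL pair. Cox7a2 itself went against the pattern: it was at 122 and 97.1 FPKM in the KL25 pair, against 147 and 135 FPKM in the KL pair (log2 fold change -0.36, SE 0.32, limma adjusted p = 0.942), and KL replicate 1 was its highest library. That value was -0.20 without KL25 replicate 2.

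Cox7a1, the heart and muscle isoform of Cox7a2, had the lowest unadjusted p of all members. It was at 11.2 and 3.48 FPKM in the KL25 pair and 0.359 and 2.09 FPKM in the KL pair. The log2 fold change was 1.85 (SE 0.65, unadjusted p = 0.0337, limma adjusted p = 0.942), and the authors' deposited table gives 2.53 (SE 1.43, unadjusted p = 0.0760). The log2 fold change was 2.66 and 0.93 with pseudocounts of 0.1 and 5. It was 1.26 (limma adjusted p = 0.754) without KL replicate 1 and 2.44 (limma adjusted p = 0.246) without KL replicate 2, and leaving out KL25 replicate 1 or 2 gave 1.13 or 2.57. With array weights no member, Cox7a1 included, had an unadjusted p below 0.05. KL25 replicate 1 was the high library, and the gene rested on a mean normalized count of 18.0 in the authors' deposited table, the lowest among measured members. Of 9 markers of striated muscle 1 was measured, and their summed level was 3.47 and 4.31 FPKM in the KL25 pair and 3.60 and 1.99 FPKM in the KL pair. Of those 9, 3 and 5 were listed at 0 in the KL25 pair, and 1 and 4 in the KL pair. Cox7a1 is also known from brown fat. Of 5 markers of brown fat and smooth muscle 2 were measured, and all 5 summed to 11 and 11.6 FPKM in the KL25 pair and 7.87 and 9.45 FPKM in the KL pair, with 1 at 0 in KL replicate 2. The brown fat gene Ucp1, which uncouples respiration, was at 0.405 and 0.186 FPKM in the KL25 pair, against 0.406 FPKM and 0 in the KL pair. Myh11, a smooth muscle myosin, was at 0.138 and 0.352 FPKM in the KL25 pair, against 0.464 and 0.814 FPKM in the KL pair. Cidea, a lipid droplet protein, was the gene of this list whose order followed Cox7a1, at 4.0 and 2.52 FPKM in the KL25 pair and 0.681 and 1.05 FPKM in the KL pair. The part of these cell types in the level of Cox7a1 was not tested. Cox6b2, a testis-type isoform, was at 6.24 and 14.1 FPKM in the KL25 pair and 5.28 and 21.4 FPKM in the KL pair. The muscle isoform Cox6a2 and the testis isoform Cox8c were not measured. Cox6a2 was at 0.344 FPKM in KL25 replicate 1 and 1.41 FPKM in KL replicate 1, and listed at 0 in the remaining libraries. Cox8c was at 1.04 FPKM in KL replicate 1 and listed at 0 in the others. Cox7b2 and Cox8b were not analysed here.

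**Figure D2:**
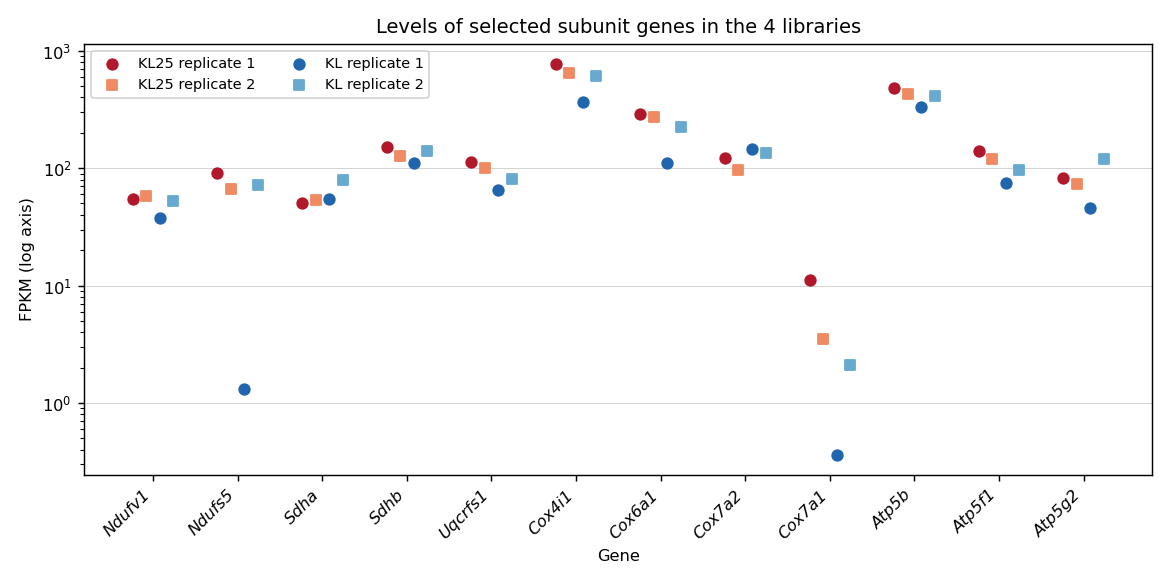
FPKM on a log axis for 12 subunit genes, with 1 point per library, KL25 libraries in red tones left of KL libraries in blue tones. Ndufs5 stood at 66.3 FPKM or more in 3 libraries and at 1.31 FPKM in KL replicate 1, and Sdha and Cox7a2 had both KL25 points below both KL points.

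Complex V is the ATP synthase, and all 17 members named for it were measured. Of these, Atp5s and Atp5sl, the latter now called Dmac2, were included by gene name. The log2 fold change was positive in 15 (88.2%, against 53.1% of all genes tested), with a median of 0.29. That median was -0.038 with 7 positive without KL replicate 1, and 0.73 without KL replicate 2. Dropping KL25 replicate 1 gave 0.21 and dropping KL25 replicate 2 gave 0.37. Of the catalytic head, Atp5b, the catalytic beta subunit, was the most abundant, at 480 and 428 FPKM in the KL25 pair and 333 and 408 FPKM in the KL pair. Atp5a1, the alpha subunit, was at 309 and 263 FPKM in the KL25 pair and 202 and 282 FPKM in the KL pair. Atp5c1, the rotating gamma shaft, was at 180 and 163 FPKM in the KL25 pair and 121 and 162 FPKM in the KL pair. Atp5b and Atp5c1 did not overlap between groups, but the gap for Atp5c1 was under 1 FPKM. Atp5d, the delta subunit of the shaft, was at 192 and 140 FPKM in the KL25 pair and 45.9 and 165 FPKM in the KL pair. It had a log2 fold change of 0.90 (SE 0.66, limma adjusted p = 0.942) and of -0.0081 without KL replicate 1.

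In the stalk and membrane part of the synthase, Atp5f1, the b subunit of the peripheral stalk, was at 141 and 119 FPKM in the KL25 pair and 74.5 and 96.8 FPKM in the KL pair (log2 fold change 0.60, SE 0.33, limma adjusted p = 0.942). Atp5h, the d subunit of that stalk, was at 243 and 208 FPKM in the KL25 pair and 113 and 202 FPKM in the KL pair. Both genes had KL25 libraries above KL libraries. Atp5j2, the membrane f subunit, was at 480 and 286 FPKM in the KL25 pair and 331 and 456 FPKM in the KL pair, with the KL25 libraries on both sides of the KL libraries. Atp5g1, Atp5g2 and Atp5g3 encode the same mature c subunit of the rotor ring. Atp5g3 was the most abundant, at 168 and 214 FPKM in the KL25 pair and 134 and 195 FPKM in the KL pair. Atp5g1 was at 73.0 and 82.5 FPKM in the KL25 pair and 51.2 and 82.1 FPKM in the KL pair. Atp5g2 was at 82.6 and 72.8 FPKM in the KL25 pair and 45.6 and 120 FPKM in the KL pair. In Atp5g2 the KL libraries marked both extremes, and the log2 fold change of 0.064 became -0.63 without KL replicate 1 and 0.75 without KL replicate 2. Atp5s, now called Dmac2l and also known as factor B, was low, at 2.41 and 1.19 FPKM in the KL25 pair and 2.06 and 2.14 FPKM in the KL pair.

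**Figure D3:**
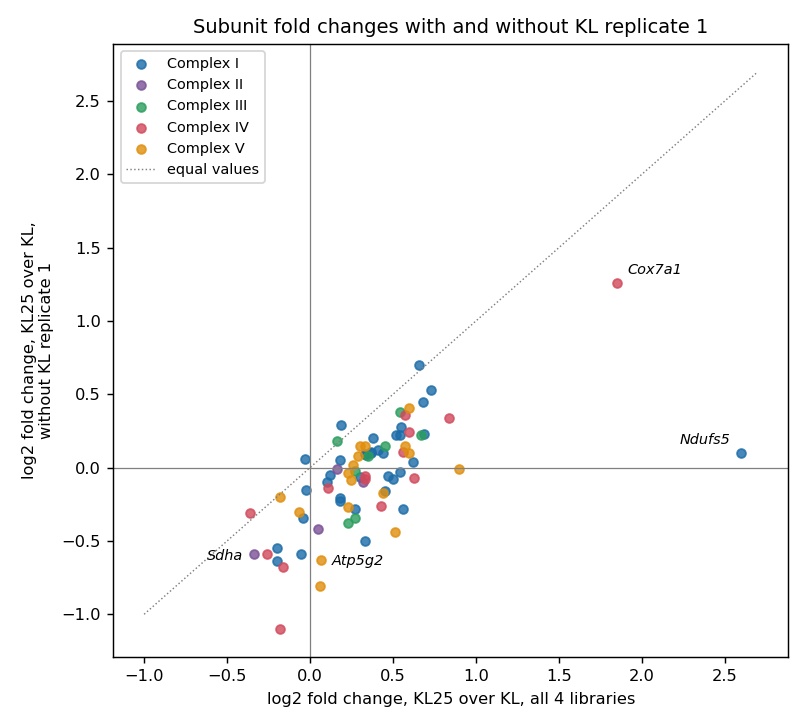
Each point is 1 of the 79 measured genes, coloured by complex, with its log2 fold change of KL25 over KL from all 4 libraries on the x axis and without KL replicate 1 on the y axis; the dotted line marks equal values. The cloud lies right of zero on the x axis (66 of 79 positive) and around zero on the y axis (36 of 79 positive), and Ndufs5 lay at 0.10 on the y axis.

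Of the measured members, 3 reached an unadjusted p below 0.05 when KL replicate 1 was left out, all with lower levels in KL25, against 2.37% of all genes tested in that direction and 4.61% in either. Sdha then had a log2 fold change of -0.59 (SE 0.17, unadjusted p = 0.0412, limma adjusted p = 0.754). Cox5b had -0.59 (SE 0.18, unadjusted p = 0.0453, limma adjusted p = 0.754), and Atp5g2 had -0.63 (SE 0.19, unadjusted p = 0.0456, limma adjusted p = 0.754). None of the 3 passed after adjustment, and a share of this size is near that of all genes. In that fit KL replicate 2 is a lone library, assumed to vary like the KL25 pair.

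Levels of other cell types' genes are given beside those of the subunits. All 7 neutrophil genes listed were measured, and their summed level was 2076 and 1217 FPKM in the KL25 pair, against 40820 and 718 FPKM in the KL pair. KL replicate 1 thus held 7.66% of its total in these genes, and none of the 7 was at 0 in any library. All 10 epithelial genes were measured, and they summed to 3886 and 1467 FPKM in the KL25 pair, against 1007 and 853 FPKM in the KL pair. All 10 were highest in KL25 replicate 1, as were 45 of the 79 subunit genes, against 3168 of the 12476 genes tested. Of the 10, 8 were lowest in KL replicate 2 and 2 in KL replicate 1, against 23.2% and 38.3% of all genes tested. The 10 leukocyte genes, all measured and none at 0, summed to 4256 and 4825 FPKM in the KL25 pair and 5171 and 6642 FPKM in the KL pair. Taken gene by gene, 7 of the 10 were highest in KL replicate 1, against 3763 of the 12476 genes tested. The median log2 level of the 10, relative to each gene's mean, was 0.61 in KL replicate 1 and 0.011 in KL replicate 2. The other 3, Laptm5, Tyrobp and Cd74, were highest in KL replicate 2, and Tyrobp and Cd74 were lowest in KL replicate 1. Laptm5 was at 299 and 393 FPKM in the KL25 pair and 323 and 606 FPKM in the KL pair. Tyrobp was at 1260 and 1040 FPKM in the KL25 pair and 1030 and 1660 FPKM in the KL pair. Cd74, the invariant chain of MHC class II, was at 1100 and 1740 FPKM in the KL25 pair and 540 and 2540 FPKM in the KL pair. The part of these cell types in the subunit levels was not tested.

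**Figure D4:**
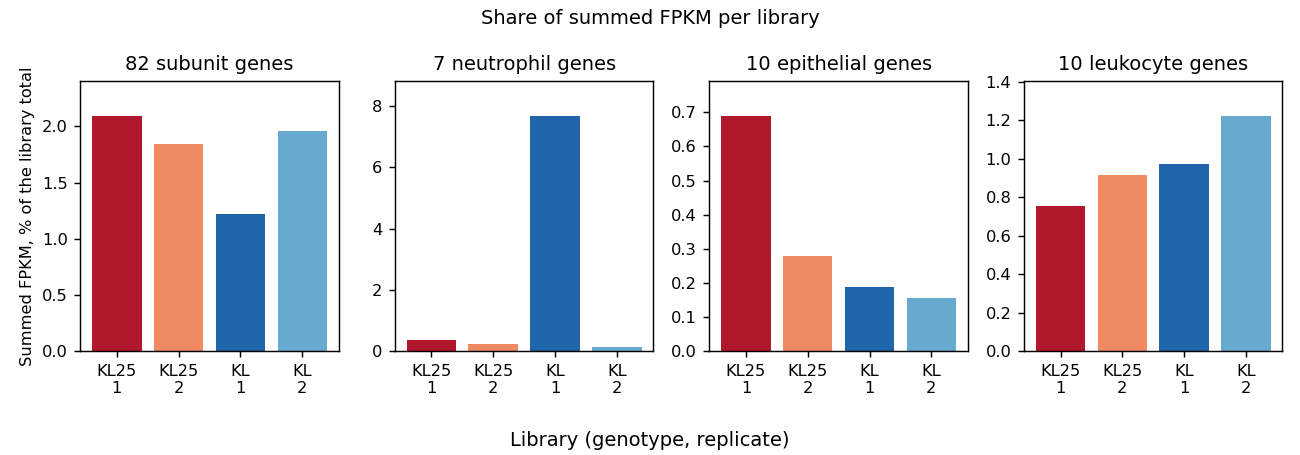
Bars give the summed FPKM of each gene list as a percentage of the library total, 1 bar per library, each panel with its own axis from 0. The subunit genes held 2.09% and 1.84% in KL25 and 1.22% and 1.96% in KL, and the neutrophil genes stood at 7.66% in KL replicate 1 and at most 0.367% elsewhere.

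Transcript length moved with the level in KL replicate 1 as well. The measured members had a median annotated transcript length of 737 bases, against 2507 bases over the tested genes with a length, and 52 of 78 were under 1000 bases. For genes under 1000 bases other than the members, the level in KL replicate 1 minus the mean of the other 3 libraries had a median of -0.39 on the log2 scale. It was -0.33 from 1000 to 2000 bases, -0.067 from 2000 to 4000 bases and 0.20 above that. The corresponding medians of the members were -0.76 (52 genes), -0.58 (20 genes) and -0.39 (6 genes), lower than the other genes in each class. KL replicate 1 was lowest in 90.4%, 85.0% and 83.3% of the members of these 3 classes, against 49.7%, 53.2% and 35.5% of the other genes. These are descriptions without a test, and the part of length in the subunit levels was not tested.

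**Figure D5:**
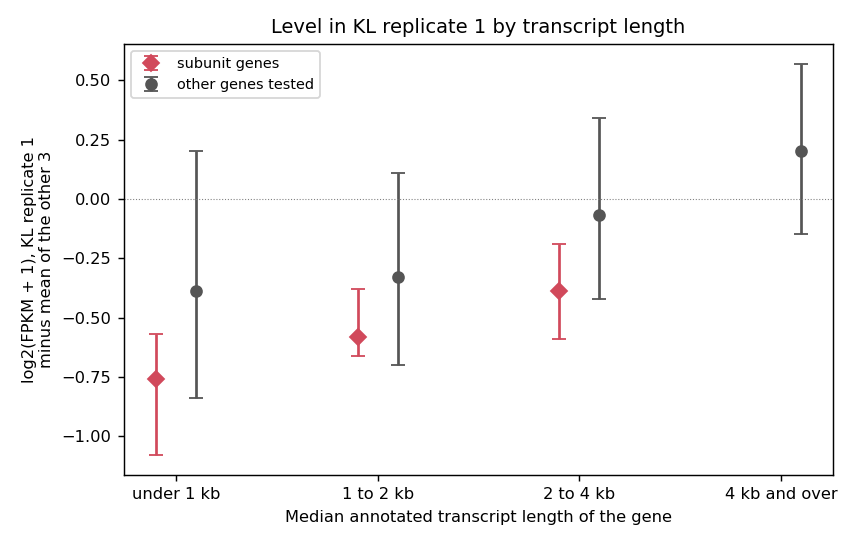
Level in KL replicate 1 minus the mean of the other 3 libraries on the log2(FPKM + 1) scale, by transcript length; diamonds are subunit genes, circles are the other genes tested, and bars run from the lower to the upper quartile. The subunit medians of -0.76, -0.58 and -0.39 lie below those of the other genes in the first 3 classes, and no member fell in the longest class.

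Partner genes that the name rule leaves out showed the same order of libraries in part. The log2 fold change was above 0 in all 6 such genes, against 53.1% of all genes tested (median 0.64, and 0.35 without KL replicate 1). In 4 of them (66.7%) both KL25 libraries were above both KL libraries, against 19.1% of all genes tested. Atpif1, an inhibitor of the ATP synthase, was at 75.5 and 68.1 FPKM in the KL25 pair and 34.8 and 55.9 FPKM in the KL pair. Usmg5, a small subunit of the synthase, was at 340 and 188 FPKM in the KL25 pair and 133 and 168 FPKM in the KL pair. Ndufab1, the mitochondrial acyl carrier protein, was at 37.4 and 26.0 FPKM in the KL25 pair and 13.5 and 25.2 FPKM in the KL pair. None of them passed, and in the first 2 the KL25 libraries were also clear of KL replicate 2.

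Assembly factors and the citric acid cycle had smaller shifts. Of 14 measured complex I assembly factors 10 were positive (71.4%, median 0.21). Of 29 for complexes II to V 21 were positive (72.4%, median 0.23, and -0.095 without KL replicate 1). Among all genes tested 53.1% were positive. No gene of either list passed, and 0 had an unadjusted p below 0.05. Sdhaf3, an assembly factor of succinate dehydrogenase, was at 4.21 and 5.98 FPKM in the KL25 pair, against 0.797 and 2.99 FPKM in the KL pair. Sdhaf4, which acts on the same complex, was at 31.2 and 18.3 FPKM in the KL25 pair and 9.49 and 15.9 FPKM in the KL pair. Cox20, an assembly factor of complex IV, was at 38.6 and 36.2 FPKM in the KL25 pair and 28.4 and 17.2 FPKM in the KL pair. These 3 genes, named for the lowest unadjusted p of their list, had non-overlapping groups. The KL25 pair was above the KL pair in 2 of the 14 complex I assembly factors (14.3%). It was above in 7 of the 29 for complexes II to V (24.1%), and 19.1% of all genes tested were above. In the same 2 lists it was below in 0 and 1 (3.45%), against 15.0% of all genes tested. Of 13 citric acid cycle genes 10 were positive (76.9%, against 53.1% of all genes tested). Their median was 0.13, and 0.011 without KL replicate 1. Fh1, fumarase, was at 51.0 and 37.9 FPKM in the KL25 pair and 26.3 and 36.5 FPKM in the KL pair. The KL25 pair was above the KL pair in 5 of the 13 (38.5%, against 19.1% of all genes tested) and below it in 1 (7.69%, against 15.0%). That gene, Cs, which encodes citrate synthase, was at 36.5 and 39.0 FPKM in the KL25 pair and 41.3 and 41.5 FPKM in the KL pair.

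Regulators of mitochondrial biogenesis had medians of 7.38 and 7.75 FPKM in the KL25 pair and 6.5 and 6.5 FPKM in the KL pair, against 7.27 to 7.52 FPKM over all genes tested. Of 12 measured, 8 were positive (66.7%, against 53.1% of all genes tested), with a median log2 fold change of 0.082, and none passed. Tfam, which packages and transcribes mitochondrial DNA, was at 6.99 and 7.24 FPKM in the KL25 pair and 4.21 and 4.37 FPKM in the KL pair (log2 fold change 0.62, SE 0.27, limma adjusted p = 0.942). Its libraries agreed closely within each group, KL replicate 1 included. Myc was at 14.3 and 12.9 FPKM in the KL25 pair and 6.04 and 11.4 FPKM in the KL pair. Nrf1, whose motif is counted above, was at 7.78 and 7.67 FPKM in the KL25 pair and 10.9 and 7.57 FPKM in the KL pair. Of the 12 measured regulators 3, Nrf1 among them, were highest in KL replicate 1, against 3763 of the 12476 genes tested. The coactivator Ppargc1a was not measured, at 0.355 and 0.0473 FPKM in the KL25 pair and 0.664 and 0.288 FPKM in the KL pair.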

How the data were processed

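Poly(A) RNA from 4 preparations was sequenced with a stranded kit, per the labels' protocols. Trimming with cutadapt, alignment to GRCm38 and gene counting with HTSeq are given per the labels; the submitters' processing notes also list GRCm39. The authors deposited values per library, read here as FPKM, and beside them, per the file headers, p-values, a log2 fold change and its error, a test score, and the mean normalized count as a signal over libraries. Depth per library is not given; the mean normalized count of measured members was 18.0 to 8717.

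Of 21445 rows, 25 with names turned into dates (0.117% of FPKM) were left out. Log2(FPKM + 1) of the 12476 genes averaging 1 FPKM or more in at least 1 group was fitted with limma 3.58.1 in R 4.3.3, using its trend option, no covariates, Benjamini-Hochberg adjustment and a 0.05 threshold. The design foresaw counts or FPKM and used the FPKM route. Fold changes of low genes are understated. Leaving out 1 library leaves 1 in its group, assumed to vary like the other group.

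Genes named were, per complex, the 3 lowest unadjusted p and 2 highest means, catalytic core and isoform members, up to 10 negative members, for other lists up to 3 with the lowest unadjusted p, and, after their values were seen, Ndufs5, Gm1987, Cs, Ppargc1a and single marker genes. Of the genes so named, 1 is not reported here. The members and lists were chosen with earlier results of these data known. P-values measure the spread between these libraries. The fitting code was tried on simulated data with large added changes and independent noise of the same spread in every gene. Shifts as small as those of the members, and a library that stands apart, were not simulated. Coordinates are from GENCODE M21 (GRCm38), matched by symbol for 81 of 82 members. A repeat of the table and a title-only table were not used.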

Additional observations from a re-analysis of the deposited data

How the results depend on the processing

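Under both pseudocounts (0.1 and 5), no filter, a filter at 5 FPKM, median ratio and TPM scaling, the replicate block, array weights and each of the 4 fits without a library, 0 genes passed in limma. At an unadjusted p below 0.05 there were 227 to 625 genes in the alternatives that keep all 4 libraries and 136 to 2535 in those that leave 1 out. Leaving out 1 library put the members with KL25 above KL at 24 to 73 and those below at 2 to 27, while the other alternatives gave 20 to 25 and 2. Fewer libraries make such separation more frequent for all genes tested. Without KL replicate 1, 30.4% of members were above and 34.2% below, against 35.5% and 36.7% of all genes tested. Without KL replicate 2, 92.4% of members were above, against 45.1%. With all 4 libraries the shares of all genes were 19.1% and 15.0%. The median of the members was 0.28 to 0.34 in fits of all 4 libraries and -0.029 to 0.72 when 1 was left out. Whether same-numbered libraries were paired is not known from the replicate numbers. Their deviations from the group means correlated at 0.152 across 12476 genes, which cannot settle it. The counts above and below are read from the FPKM values, so the replicate block, array weights and pseudocounts could not change them. In the fit with the replicate block, 2 members (Cox7a1 and Ndufs5) had an unadjusted limma p below 0.05. With the block 625 of all genes tested were under that threshold, against 403 in the main fit. Of the genes named, Sdhd was at -0.0028 under median ratio scaling, and 23 changed sign when 1 library was left out, 14 of them without KL replicate 1. Their log2 fold changes then spanned -0.0081 to 1.82 for Atp5d, -0.081 to 0.59 for Atp5g1, -0.63 to 0.75 for Atp5g2, -0.038 to 0.50 for Atp5g3, -0.44 to 0.31 for Atp5j2, -0.50 to 0.14 for Atp5s, -0.68 to 0.36 for Cox4i2. They spanned -0.08 to 0.75 for Cox5a, -0.59 to 0.077 for Cox5b, -0.073 to 1.33 for Cox6b1, -1.10 to 0.73 for Cox6b2, -0.23 to 0.45 for Cox6c, -0.26 to 1.12 for Cox7b, -0.056 to 0.72 for Cox8a. They spanned -0.59 to 0.48 for Ndufa1, -0.064 to 0.67 for Ndufa6, -0.55 to 0.16 for Ndufb8, -0.15 to 0.11 for Ndufs1, -0.64 to 0.23 for Ndufv3, -0.0078 to 0.33 for Sdhb, -0.099 to 0.75 for Sdhc, -0.42 to 0.52 for Sdhd, -0.38 to 0.85 for Uqcrq. None of these genes was called in any fit. Beyond the leave-out itself, the cause was not tested. Depth per library is unknown, so no counting interval is given, and 2 libraries per group limit what could be called.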
